A study of Mus musculus with 34 samples.

Results

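The 10 genes described here belong to the circadian clock: the activator Arntl (also called Bmal1), the repressors Per1, Per2, Per3, Cry1, Cry2, Nr1d1 and Nr1d2, and the output regulators Dbp and Tef. They were chosen by name from the 23509 genes listed in each of 34 tables of read counts from mouse kidney. All 10 were among the 15644 genes with enough reads to be tested. Whole kidneys of C57BL6 mice were taken at postnatal day 28 (P28), and polyadenylated RNA was sequenced from each. The UNT group held 12 kidneys of untreated wildtype mice. The PBS group held 11 kidneys of Pkd2-KO mice (spelled Pdk2KO in the sample titles), a model of polycystic kidney disease, that received saline under the skin on P10, P11, P12 and P19. All 11 deposited tables were used, although a figure legend of the study gives fewer kidneys for this group. The RGLS4326 group held 11 kidneys of Pkd2-KO mice given 20 mg/kg of RGLS4326, a short oligonucleotide that binds the microRNA miR-17, on the same days. In this model Cre recombinase driven by Pkhd1 sequences removes a floxed Pkd2, so that deletion is limited to tubule cells and the rest of the kidney keeps the gene. The hour of day at which kidneys were taken, which bears on any clock gene, is not given in the sources used here. Nothing in the labels says that the samples of a group came from separate litters or cultures, so p-values measure the spread between these samples.

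The clock is a loop of transcription with delayed feedback. ARNTL pairs with CLOCK or NPAS2 and binds E-box sequences at the Per, Cry, Nr1d1, Nr1d2, Dbp and Tef genes. PER and CRY proteins then block that pair, and the nuclear receptors NR1D1 and NR1D2 (REV-ERB alpha and beta) repress Arntl through ROR elements. DBP and TEF bind D-box sequences and pass the rhythm on to many genes of metabolism and transport. In kidney, Dbp and Nr1d1 RNA peak in the hours when Arntl RNA is low, and the clock is known for its part in the daily rhythm of sodium handling.

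Because the results turn on genes that the same short elements are known to link, promoter windows of the members (from 250 bases before to 50 after each annotated start, RefSeq, GRCm38.p6) were searched on both strands for 3 elements. An E-box was written as CACGTG, a D-box as TTATGNAA or TTACGTAA and a ROR element as AANTN followed directly by GGTCA. The table holds no window for Per2. Of 32851 windows in the table, 7.15% held an E-box, 3.50% a D-box and 0.606% a ROR element. These shares are per window, while a member was counted if any of its windows held the element. Arntl, Per1 and Tef had 2 windows each, so the 2 kinds of count are not directly comparable. Cry1, Per1 and Tef held an E-box, Per1 and Per3 a D-box, and Arntl a ROR element. A match is a description of the letters in these windows only. Per3 held 2 D-boxes in 1 window and Tef 2 E-boxes, 1 in each of its 2 windows, of which 1 each is shown. Capitals mark the element, and each stretch reads 5′ to 3′ along the gene.
Arntl, ROR element, chr7:113207528-113207557, plus strand: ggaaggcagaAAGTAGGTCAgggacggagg
Cry1, E-box, chr10:85185097-85185126, minus strand: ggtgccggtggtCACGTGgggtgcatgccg
Per1, E-box, chr11:69098771-69098800, plus strand: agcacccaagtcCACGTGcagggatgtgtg
Per1, D-box, chr11:69098914-69098943, plus strand: agggcctggcaTTATGCAAcccgcctccca
Per3, D-box, chr4:151044805-151044834, minus strand: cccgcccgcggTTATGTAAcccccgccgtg
Tef, E-box, chr15:81802534-81802563, plus strand: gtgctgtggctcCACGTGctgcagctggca

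Some facts of the series touch these genes. Reads assigned to genes ranged from 17603122 to 54981992 per kidney. Pkd2 itself, counted over the whole gene, stood at 219.6 to 338 CPM (the reads of a gene relative to all gene reads of its library, scaled by TMM factors) in UNT kidneys, 98 to 215 in PBS kidneys and 170.0 to 237 in RGLS4326 kidneys. The summed level of 12 proximal tubule markers was 21988 to 29710 CPM in UNT kidneys, 2242 to 7906 in PBS kidneys and 4565 to 7620 in RGLS4326 kidneys, and all 12 were called lower in PBS than in UNT. All 7 macrophage markers were called higher, with summed levels of 94.8 to 168, 814 to 2598 and 764 to 1595 CPM in the same order, and so were all 8 fibroblast markers and all 6 collecting duct markers. Of all tested genes, 39.0% were called lower and 43.1% higher in PBS than in UNT. The share of reads that fell in no gene was 9.84 to 11.3% in UNT, 5.18 to 9.0% in PBS and 4.94 to 12.0% in RGLS4326 kidneys. In bulk tissue, fewer cells of a type and less RNA per cell cannot be told apart, and the part of these shifts in the results below was not tested. PBS kidneys 2 and 11 stood apart by transcripts of the adrenal cortex: Star, a steroidogenic gene, ranged from 2.31 to 450.3 CPM in the PBS group, with those 2 kidneys on top, and results that rest on them are given with and without them. The numbering in the table names restarts so as to divide the libraries into 3 sets with 3 or 4 kidneys of each group, and differences within the sets are given for the members.

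Per length of transcript, Tef was the most abundant member in UNT kidneys at 141 ± 12.9 CPM per kilobase (SD, n = 12). Dbp followed at 85.4 ± 30.7 and Nr1d2 at 54.0 ± 8.43, and these 2 overlapped within 1 SD. Per1 (35.5 ± 9.34), Nr1d1 (29.4 ± 11.3), Per2 (25.8 ± 8.54) and Per3 (23.7 ± 3.03) came next, below Nr1d2, and these 4 did not differ among themselves beyond the SD. Cry2 (12.4 ± 2.07), Cry1 (5.88 ± 2.61) and Arntl (1.35 ± 0.931) came last, each lower than the one before it by more than the SDs. In PBS kidneys, Tef (54.2 ± 8.90) and Dbp (50.6 ± 18.5, n = 11) no longer stood apart. In RGLS4326 kidneys Tef (56.9 ± 5.08, n = 11) and Dbp (40 ± 12.9) likewise overlapped within 1 SD, and Arntl was again the least abundant at 2.6 ± 0.608 CPM per kilobase.

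**Figure D1:**
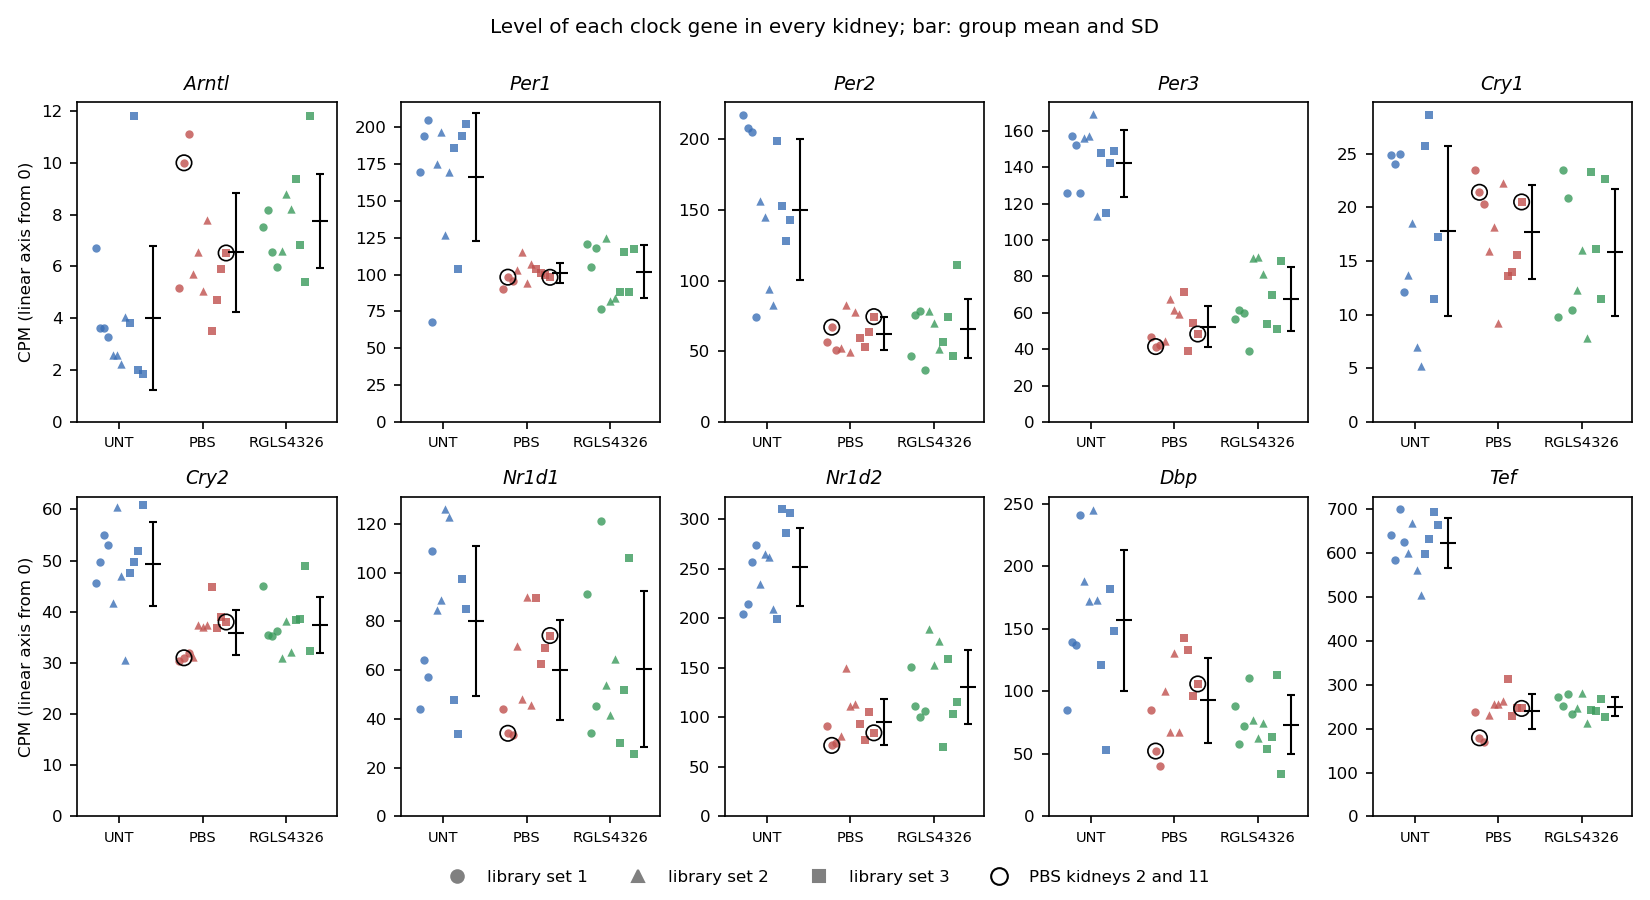
CPM of each of the 10 clock genes (linear vertical axes from 0) in every kidney of the UNT (n = 12), PBS (n = 11) and RGLS4326 (n = 11) groups; marker shapes give the library set, rings mark PBS kidneys 2 and 11, and bars give the group mean ± SD. Per3, Nr1d2 and Tef show no overlap between UNT kidneys and either Pkd2-KO group, while the Cry1 ranges of PBS (9.19 to 23.5 CPM) and RGLS4326 kidneys (7.79 to 23.5 CPM) lie inside that of UNT kidneys (5.22 to 28.6 CPM).

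The first comparison, PBS against UNT, asks how the clock genes of a cystic kidney differ from those of a normal one. In PBS kidneys 7 of the 10 genes were lower and Arntl was higher, and Cry1 and Nr1d1 did not pass the test. The decrease was 2.61-fold to 2.72-fold for Tef, Nr1d2 and Per3, 2.40-fold for Per2 and 1.38-fold to 1.69-fold for Cry2, Per1 and Dbp. Calls were common in this comparison: of all tested genes 39.0% were called lower and 43.1% higher, so that a call by itself says little about a clock gene. The median log2 fold change of the 10 members was -0.74, beside 0.04 for all tested genes. For Per3, Nr1d2 and Tef the highest PBS kidney lay under the lowest UNT kidney, which held for 19.8% of all tested genes in this direction. In the other direction 22.7% were separated, none of them a member.

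Among the output regulators, Tef (chr15:81802421-81826863, plus strand, GRCm38) ranged from 505 to 701 CPM in UNT kidneys (median 628), from 169 to 312 in PBS kidneys (median 246) and from 213 to 282 in RGLS4326 kidneys (median 248). The UNT kidneys stood well clear of both other groups, and even the lowest UNT kidney, replicate 8, lay far above the highest PBS kidney, also a replicate 8. The log2 fold change of PBS against UNT was -1.38 ± 0.08 (SE; adjusted p = 3.57e-18), and 8.72% of all tested genes had a lower value. Within library sets 1, 2 and 3 the difference was -1.72, -1.21 and -1.33. Dbp (chr7:45705088-45710203, plus strand) ranged from 53.1 to 245 CPM in UNT (median 159.9), from 40.3 to 143 in PBS (median 96.5) and from 33.6 to 113 in RGLS4326 kidneys (median 72.3). Its groups overlapped, and UNT kidneys 10 (53.1 CPM) and 1 (85.0 CPM) held less than the median PBS kidney. The log2 fold change was -0.75 ± 0.21 (adjusted p = 0.00172), but within the sets it was -1.30, -1.12 and 0.04, and it was not called with set 3 alone (-0.07, adjusted p = 0.863) or without set 2 (adjusted p = 0.0804). On the opposite strand, exons of Sphk2 cover 539 bases of Dbp, 18.0% of its exon bases, and the strand setting of the counting is not given, so reads there cannot be told apart. Sphk2 itself differed by -0.14 on the log2 scale (adjusted p = 0.0390).

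Of the nuclear receptor repressors, Nr1d2 (chr14:18204054-18239127, minus strand) ranged from 199 to 310.5 CPM in UNT (median 259), from 71.7 to 150.3 in PBS (median 91.0) and from 70.3 to 189.7 in RGLS4326 kidneys (median 116). No Pkd2-KO kidney reached the lowest UNT kidney. PBS differed from UNT by -1.39 ± 0.14 (adjusted p = 1.33e-11), and by -1.57, -1.11 and -1.59 within the sets. Nr1d1, its close relative (chr11:98767932-98775333, minus strand), ranged from 33.7 to 126 CPM in UNT (median 84.9), from 33.4 to 90.1 in PBS (median 62.7) and from 25.4 to 121 in RGLS4326 kidneys (median 52.0). The 3 groups overlapped, with nearly the same lowest value in UNT and PBS, but UNT kidneys 4, 7, 8 and 11 (109, 126, 123 and 97.5 CPM) lay above every PBS kidney. The log2 difference of -0.41 ± 0.24 did not pass the test (adjusted p = 0.114, 95% interval -0.89 to 0.06), and the sets disagreed, with -0.80, -0.76 and 0.27. It was called lower without set 3 (-0.78, adjusted p = 0.0134), with set 2 alone (-0.77, adjusted p = 0.00871) and with the fraction of each library outside annotated genes as a covariate (-0.89, adjusted p = 0.0216). Exons of Thra on the opposite strand cover 263 bases of Nr1d1, 8.55% of its exon bases, and Thra was not called (0.17, adjusted p = 0.0937).

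The activator Arntl (chr7:113207465-113314126, plus strand) ranged from 1.85 to 11.8 CPM in UNT (median 3.45), from 3.49 to 11.1 in PBS (median 5.92) and from 5.40 to 11.8 in RGLS4326 kidneys (median 7.54). The groups overlapped, and UNT kidney 10 held as much as the highest RGLS4326 kidney, while the next UNT kidney stood at 6.73 CPM. The log2 fold change of PBS against UNT was 0.69 ± 0.23 (adjusted p = 0.00692), with 10 of 11 PBS kidneys above the UNT mean. Within the sets it was 0.86, 0.92 and 0.33, and the call was lost without set 1 (adjusted p = 0.0938), without set 2 (adjusted p = 0.127) and with set 3 alone (adjusted p = 0.925). Leaving out UNT kidney 10 or any other single kidney kept the call, with values of 0.59 to 0.98. Of ARNTL's partners, Npas2 rose by 1.60 ± 0.16 on the log2 scale (adjusted p = 2.55e-11), from 0.729 to 1.94 CPM in UNT to 2.12 to 4.92 CPM in PBS kidneys without overlap, and Arntl2, a paralog of Arntl, by 0.67 ± 0.19. Clock gave -0.10 ± 0.12 (adjusted p = 0.429) with 0.02, 0.23 and -0.60 within the sets. It was called lower with set 3 alone (-0.57, adjusted p = 0.0308), and was 0.20 with library size alone as the scaling and 0.29 with the fraction outside annotated genes as a covariate, neither called.

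Of the period genes, which encode the inhibitors that enter the nucleus with CRY, Per3 (chr4:151003652-151044665, minus strand) ranged from 113 to 169 CPM in UNT (median 149), from 38.8 to 71.2 in PBS (median 48.3) and from 39.2 to 90.4 in RGLS4326 kidneys (median 61.7). UNT kidneys were again separate from both other groups. PBS differed from UNT by -1.44 ± 0.12 on the log2 scale (adjusted p = 3.83e-13), and by -1.67, -1.34 and -1.39 within the sets. Per2 (chr1:91415982-91459324, minus strand) ranged from 74.2 to 217 CPM in UNT (median 149), from 49.6 to 82.5 in PBS (median 59.2) and from 36.4 to 111 in RGLS4326 kidneys (median 70.2). Only UNT kidneys 4 and 8 (74.2 and 82.4 CPM) reached down into the PBS range. The fold change was -1.27 ± 0.17 (adjusted p = 2.70e-08), with -1.47, -0.84 and -1.29 within the sets. Per1 (chr11:69095217-69109960, plus strand) ranged from 67.6 to 205 CPM in UNT (median 181), from 90.5 to 115 in PBS (median 99.9) and from 76.3 to 125 in RGLS4326 kidneys (median 105). Of the UNT kidneys, replicate 4 (67.6 CPM) lay under every PBS kidney and replicate 10 (104 CPM) among them. The fold change was -0.72 ± 0.12 (adjusted p = 2.45e-06), with -0.62, -0.66 and -0.71 within the sets.

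Of the cryptochrome genes, whose proteins bind the ARNTL pair directly, Cry2 (chr2:92403646-92434043, minus strand) ranged from 30.6 to 60.9 CPM in UNT (median 49.8), from 30.3 to 44.9 in PBS (median 37.0) and from 31.0 to 48.9 in RGLS4326 kidneys (median 36.3). UNT kidneys 8 and 5 (30.6 and 41.7 CPM) lay within the PBS range, while all 11 PBS kidneys lay below the UNT mean. The fold change was -0.46 ± 0.09 (adjusted p = 1.31e-05), with -0.69, -0.28 and -0.39 within the sets. With library size alone as the scaling, which shifted the median of all tested genes from 0.04 to 0.33 and the share of higher genes among the called from 52.5 to 68.6%, Cry2 was not called (-0.16, adjusted p = 0.0706), nor was it with set 2 alone (-0.36, adjusted p = 0.0662). Cry1 (chr10:85131700-85185064, minus strand) ranged from 5.22 to 28.6 CPM in UNT (median 17.8), from 9.19 to 23.5 in PBS (median 18.2) and from 7.79 to 23.5 in RGLS4326 kidneys (median 16). Its difference was -0.01 ± 0.23 (adjusted p = 0.972), with a 95% interval of -0.45 to 0.44 and 0.07, 0.61 and -0.30 within the sets.

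The size of the differences depended on the setting more than their direction did. With the fraction outside annotated genes as a covariate, PBS against UNT gave -0.83 for Per3, -0.89 for Nr1d2, -0.83 for Per2 and -1.18 for Dbp, against -1.44, -1.39, -1.27 and -0.75 without it, and all 4 were called. That fraction did not overlap between UNT (9.84 to 11.3%) and PBS kidneys (5.18 to 9.0%). Covariate and group therefore cannot be well separated in this comparison, and values with the covariate extrapolate. With library size alone as the scaling, Per1 was -0.43 and Dbp -0.47, both called. Over the 16 alternatives, Tef ran from -1.75 to -1.08, Per3 from -1.73 to -0.83, Nr1d2 from -1.63 to -0.89, Per2 from -1.63 to -0.83 and Per1 from -0.79 to -0.43, called in all 16. Arntl was called in 13 of them (0.06 to 1.1), Dbp in 14 (-1.38 to -0.07) and Cry2 in 14 (-0.75 to -0.16).

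**Figure D2:**
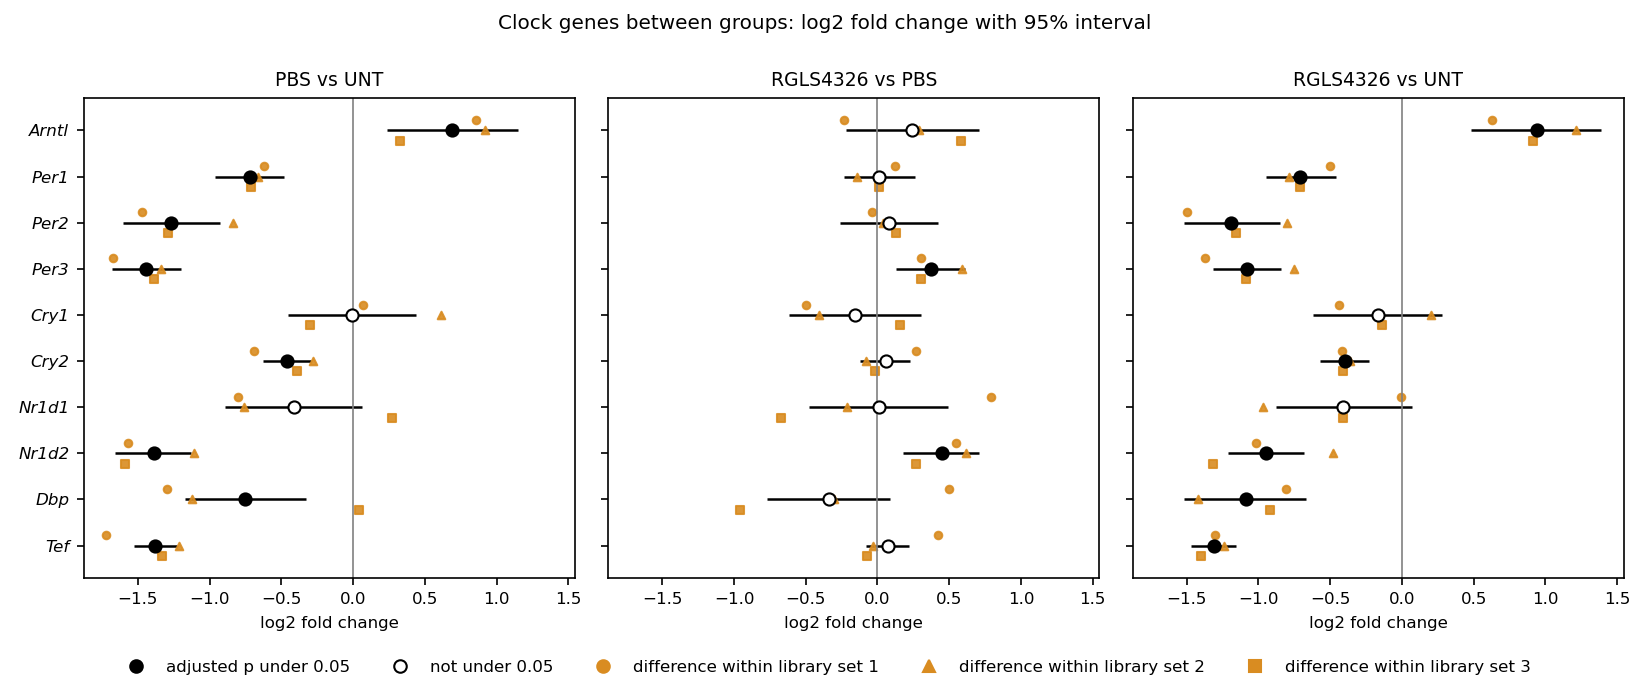
Log2 fold change of each clock gene in the 3 comparisons (horizontal axes), from the fit over all 34 kidneys; lines give 95% intervals, filled circles mark adjusted p under 0.05, and the smaller markers give the difference of group means within library sets 1, 2 and 3. Against UNT, 7 members have filled circles to the left of 0 and Arntl 1 to the right, while Cry1 and Nr1d1 have open circles, and between RGLS4326 and PBS all members but Per3 (0.37) and Nr1d2 (0.45) have open circles.

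The second comparison, RGLS4326 against PBS, asks how cystic kidneys dosed with the anti-miR-17 oligonucleotide differ from those given saline. The study also dosed mice with a control oligonucleotide, but no such kidneys are among these samples. An effect of miR-17 inhibition and an effect of any dosed oligonucleotide therefore cannot be told apart here. Per3 and Nr1d2 were higher after RGLS4326, by 1.29-fold and 1.36-fold, and no member was called lower. Of all tested genes, 15.3% were called higher and 18.5% lower. The median log2 fold change of the members was 0.06. Tissue markers also differed in this comparison, with 7 of 12 proximal tubule and 3 of 4 thick limb and distal tubule markers called higher and 4 of 6 collecting duct and 4 of 7 macrophage markers called lower, and their part in the result was not tested. For Per3, 9 of 11 treated kidneys lay above the PBS mean of 52.3 CPM, and the log2 fold change was 0.37 ± 0.12 (adjusted p = 0.0228), with 0.30, 0.59 and 0.30 within the sets. For Nr1d2, 10 of 11 treated kidneys lay above the PBS mean of 95.8 CPM, and the log2 fold change was 0.45 ± 0.14 (adjusted p = 0.0141), with 0.55, 0.62 and 0.27 within the sets. Treated and PBS kidneys overlapped for every member. Separation was rare here in general, at 0.0447% of tested genes higher and 0.0192% lower.

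Neither call held in every setting. Without PBS kidneys 2 and 11, the adjusted p was 0.0738 for Per3 (0.32) and 0.0529 for Nr1d2 (0.39), while the number of all genes called went from 5280 to 2836. When the fraction of each library outside annotated genes entered the fit as a covariate, the values were 0.02 for Per3 and 0.18 for Nr1d2, neither called, and 89 genes were called in all. Without RGLS4326 kidney 5 or 6, the 2 treated kidneys with the most Per3 (89.8 and 90.4 CPM), Per3 was not called (adjusted p = 0.0522 and 0.0532). Per3 was also not called without set 2 (0.29, adjusted p = 0.127) or set 3 (0.42, adjusted p = 0.0740), nor Nr1d2 without set 1 (0.44, adjusted p = 0.0635), with differences close to the 0.37 and 0.45 of the fit over all kidneys.

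The other 8 members did not pass the test between RGLS4326 and PBS. Their log2 differences were 0.01 (95% interval -0.23 to 0.26) for Per1, 0.08 (-0.26 to 0.42) for Per2, 0.06 (-0.12 to 0.23) for Cry2 and 0.07 (-0.08 to 0.22) for Tef. For these 4 genes the interval reached no further than 0.42 in either direction. The intervals were wider for Arntl (0.24, -0.22 to 0.71), Cry1 (-0.16, -0.62 to 0.30), Nr1d1 (0.01, -0.48 to 0.49) and Dbp (-0.34, -0.77 to 0.09). Within sets 1, 2 and 3 the differences were 0.50, -0.30 and -0.96 for Dbp, and 0.79, -0.21 and -0.67 for Nr1d1. They were -0.23, 0.29 and 0.58 for Arntl, and -0.50, -0.41 and 0.16 for Cry1. For Per1 they were 0.12, -0.14 and 0.01, and for Per2 -0.04, 0.04 and 0.13. Cry2 gave 0.27, -0.08 and -0.02, and Tef 0.42, -0.03 and -0.07. None of these 8 genes kept 1 direction across the sets.

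Clock, which encodes the partner of ARNTL and is one of the miR-17 targets that the study picked in cell lines to gauge miR-17 activity, ranged from 23.3 to 69.2 CPM in PBS (median 52.7) and from 50 to 87.2 in RGLS4326 kidneys (median 65.5). The 2 groups overlapped, with 10 of 11 treated kidneys above the PBS mean. Clock rose by 0.40 ± 0.12 on the log2 scale (adjusted p = 0.0153), with 0.05, 0.54 and 0.70 within the sets, and also without PBS kidneys 2 and 11 (0.43, adjusted p = 0.0306). It was not called without set 2 (0.38, adjusted p = 0.0707), without set 3 (0.30, adjusted p = 0.0823), with set 1 alone (0.07, adjusted p = 0.745), with set 3 alone (0.67, adjusted p = 0.262) or with the fraction outside annotated genes as a covariate (0.19, adjusted p = 0.351).

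To show which clock transcripts could pair with miR-17, each gene's longest 3′UTR in GENCODE M21 (GRCm38) was searched for 2 kinds of match to its seed. These were GCACTTT, the complement of the seed, and CACTTTA, which pairs with all but the last seed base and ends in an A. The mature miRNA, mmu-miR-17-5p (RefSeq, chr14:115043684-115043706), is printed first with the seed in capitals, then 1 site each of Cry2, Tef and Clock with the site in capitals. The final A of the Cry2 and Clock sites lies opposite the first base of the miRNA and does not pair with it. Of the 10 members only Cry2 and Tef held a match, 1 each, beside 21.9% of 14200 tested genes with a 3′UTR. Clock held 4 in 6831 bases and Npas2, which was not called after treatment (0.20, adjusted p = 0.320), held 2 in 1229 bases. Per3 and Nr1d2, the members called higher after treatment, held none in 2539 and 2631 bases. Cry2 and Tef differed by 0.06 and 0.07 between RGLS4326 and PBS, as given above.
mmu-miR-17-5p: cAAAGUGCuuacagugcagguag
Cry2, chr2:92403741-92403748, minus strand: gcaggcaagaaGCACTTTAcagagttccct
Tef, chr15:81824949-81824955, plus strand: tccctcacagctGCACTTTtctcttctatt
Clock, chr5:76212851-76212858, minus strand: aaaggtaataaGCACTTTAttgcaattatt

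The third comparison, RGLS4326 against UNT, shares its kidneys with the other 2 and gives the remaining distance from the normal kidney. Again 7 members were called lower and Arntl higher, beside 36.9% and 40.8% of all tested genes, and the median of the members was -0.83. Arntl differed by 0.94 ± 0.23 (adjusted p = 4.87e-04), and all 11 treated kidneys lay above the UNT mean, but Arntl was not called with set 3 alone (0.75, adjusted p = 0.200). Dbp differed by -1.09 ± 0.22 (adjusted p = 2.54e-05), Tef by -1.31 ± 0.08 (adjusted p = 2.05e-17), Per2 by -1.19 ± 0.17 (adjusted p = 1.13e-07) and Per1 by -0.71 ± 0.12 (adjusted p = 4.04e-06). Per1 was not called with set 1 alone (-0.63, adjusted p = 0.0520). Per3 differed by -1.08 ± 0.12 and Nr1d2 by -0.95 ± 0.13, beside -1.44 and -1.39 for PBS against UNT. These 2 genes and Tef showed no overlap with UNT kidneys, as did 16.1% of tested genes that were lower, while 20.7% were separated and higher. Cry2 was called (-0.40 ± 0.09), except with set 2 alone (-0.43, adjusted p = 0.0540) and with library size alone as the scaling (-0.10, adjusted p = 0.280), which moved the share of higher genes among the called from 52.5 to 72.5%. Within sets 1, 2 and 3 the differences from UNT were 0.63, 1.21 and 0.91 for Arntl, -0.81, -1.42 and -0.92 for Dbp, and -1.30, -1.24 and -1.40 for Tef. They were -0.50, -0.79 and -0.71 for Per1, -1.5, -0.80 and -1.16 for Per2, and -1.37, -0.75 and -1.09 for Per3. For Nr1d2 they were -1.02, -0.48 and -1.32 and for Cry2 -0.42, -0.36 and -0.41, so that these 8 genes had 1 direction in all 3 sets. Cry1 (-0.17 ± 0.23, with -0.44, 0.20 and -0.14 within the sets) and Nr1d1 (-0.41 ± 0.24, adjusted p = 0.126, with -0.01, -0.97 and -0.41 within the sets) were not called, but Nr1d1 was called with set 2 alone (-1.0, adjusted p = 0.00385), without set 1 (-0.68, adjusted p = 0.0283), with the fraction outside annotated genes as a covariate (-0.69, adjusted p = 0.0245) and without RGLS4326 kidney 4, the treated kidney with the most of it at 121 CPM (-0.55, adjusted p = 0.0344).

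All 3 genes of the fixed list of other clock activators were called higher in RGLS4326 than in UNT kidneys, beside 40.8% of all tested genes. Npas2 differed by 1.79 ± 0.16 (adjusted p = 1.96e-12, no overlap) and Arntl2 by 1.12 ± 0.19 (adjusted p = 2.14e-06). Clock differed by 0.30 ± 0.12 (adjusted p = 0.0250), with 0.07, 0.78 and 0.10 within the sets. The call of Clock was lost without set 2 (0.08, adjusted p = 0.610), with set 1 alone (adjusted p = 0.732), with set 3 alone (adjusted p = 0.731), and without RGLS4326 kidney 5 (adjusted p = 0.0504) or 6 (adjusted p = 0.0557).

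Kidneys of 1 group differed far more in some clock genes than in most genes. The SD of log2(CPM + 1) between UNT kidneys was 0.728 for Cry1, 0.616 for Dbp, 0.613 for Arntl, 0.606 for Nr1d1, 0.526 for Per2 and 0.483 for Per1, and each exceeded the SD of at least 97.6% of tested genes, whose median was 0.168. These 6 genes varied 3.02-fold or more between the lowest and the highest UNT kidney, except Per2 at 2.92-fold. Tef (0.135), Per3 (0.190), Nr1d2 (0.227) and Cry2 (0.259) stood between 29.3 and 83.4% of genes. The SD expected from counting alone was highest for Arntl, at 0.118 with its 33 to 519 reads per kidney, and for the other 9 members it was at most 0.0572 in UNT kidneys.

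In PBS kidneys the widest members were Dbp (0.577), Nr1d1 (0.505) and Arntl (0.417), and Per1 was narrow at 0.0948, a smaller SD than all but 5.42% of tested genes. Per1 there ranged only from 90.5 to 115 CPM. Without PBS kidneys 2 and 11 these SDs were 0.582, 0.483, 0.406 and 0.104. In RGLS4326 kidneys Nr1d1 varied most (0.724, from 25.4 to 121 CPM), followed by Cry1 (0.528) and Dbp (0.485), while Tef was narrow again (0.129).

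Differences in spread between groups were tested with limma on the absolute deviations from the group median, and no member passed. At an unadjusted p under 0.05 stood 2 members in PBS against UNT, both with a smaller spread in PBS (Per1, p = 0.0292, adjusted p = 0.372; Cry1, p = 0.0408, adjusted p = 0.421), 0 in RGLS4326 against PBS, and 2 in RGLS4326 against UNT, both with a wider spread in RGLS4326 than in UNT kidneys (Per3, p = 0.0248, adjusted p = 0.241; Nr1d2, p = 0.0491, adjusted p = 0.331). No other tool was run for this. Of all tested genes the spread was called wider in 0.952% and narrower in 0.160% for PBS against UNT, in 0.0511% and 0.121% for RGLS4326 against PBS, and in 1.89% and 0.249% for RGLS4326 against UNT.

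**Figure D3:**
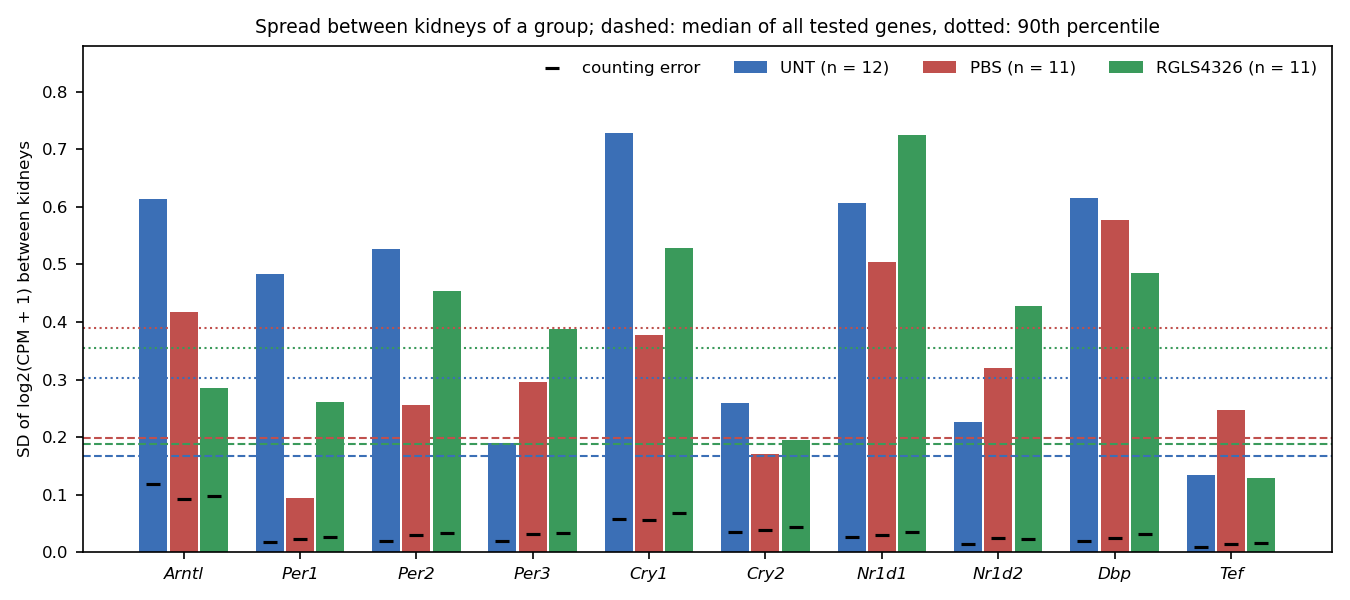
SD of log2(CPM + 1) between kidneys of a group (vertical axis, from 0) for each clock gene in UNT (n = 12), PBS (n = 11) and RGLS4326 (n = 11); short black lines give the SD expected from counting alone, dashed lines the median and dotted lines the 90th percentile of all 15644 tested genes in each group. Dbp and Nr1d1 exceed the 90th percentile in all 3 groups, and Tef and Cry2 stay under it.

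The wide spread was shared between members. Among the 45 pairs of members, over 34 kidneys with the group means removed, 14 were correlated by Pearson's r (permutations within groups, 100000 each, adjusted over the 45 pairs), 7 positively and 7 negatively, and 12 of them also by ranks. Dbp and Nr1d1 went together (r = 0.90, rho = 0.91, p = 1e-05 for both, the smallest these permutations can give; adjusted p = 9.00e-05 and 1.12e-04), and r was 0.92, 0.92 and 0.94 within the UNT, PBS and RGLS4326 groups. Per2 and Cry1 also went together (r = 0.75, p = 2.00e-05, adjusted p = 1.50e-04; rho = 0.63, p = 1.90e-04, adjusted p = 0.00142), as did Cry2 and Tef (r = 0.66, p = 1e-05, adjusted p = 9.00e-05; rho = 0.60, p = 3.00e-04, adjusted p = 0.00193). Against these, Cry1 was opposed to Nr1d1 (r = -0.82, rho = -0.84, p = 1e-05 for both; adjusted p = 9.00e-05 and 1.12e-04). Without the 2 kidneys farthest from the median of the first gene, r was 0.88 for Nr1d1 with Dbp, 0.72 for Per2 with Cry1, 0.63 for Cry2 with Tef and -0.83 for Cry1 with Nr1d1. With the means of group and library set removed, the same 4 values were 0.87, 0.80, 0.60 and -0.83. The 2 members called after treatment, Per3 and Nr1d2, were correlated as well (r = 0.59, p = 0.00131, adjusted p = 0.00589; rho = 0.50, p = 0.00393, adjusted p = 0.0161; r = 0.58 without the 2 farthest kidneys and 0.43 with set means also removed), with r = 0.01 within UNT, 0.82 within PBS and 0.63 within RGLS4326 kidneys.

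The relation of Arntl to the other 9 members was tested in each group by itself, 27 relations in all, of which 8 passed by r and 2 by rho. With Dbp, r was -0.86 in UNT (p = 0.00113, adjusted p = 0.0102, n = 12), -0.93 in PBS (p = 7.00e-05, adjusted p = 0.00189, n = 11) and -0.90 in RGLS4326 kidneys (p = 2.10e-04, adjusted p = 0.00283, n = 11). The values of rho were -0.66 (p = 0.0233, adjusted p = 0.126), -0.91 (p = 3.60e-04, adjusted p = 0.00972) and -0.84 (p = 0.00230, adjusted p = 0.0310). In each group the kidney with the most Arntl had the least Dbp: UNT kidney 10 (11.8 against 53.1 CPM), PBS kidney 3 (11.1 against 40.3) and RGLS4326 kidney 11 (11.8 against 33.6). Leaving out the 2 kidneys farthest from the Arntl median gave r of -0.36, -0.82 and -0.72, so the relation in UNT rests on 2 kidneys. Without PBS kidneys 2 and 11 it was -0.94 in the PBS group. The ratio of Dbp to Arntl in CPM ran from 4.51 to 109 in UNT kidneys (median 54.6), from 3.64 to 41.1 in PBS kidneys (median 16.3) and from 2.86 to 21 in RGLS4326 kidneys (median 9.28).

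Nr1d1 was opposed to Arntl in all 3 groups, with r of -0.76 in UNT (p = 0.00253, adjusted p = 0.0125), -0.81 in PBS (p = 0.00189, adjusted p = 0.0125) and -0.79 in RGLS4326 kidneys (p = 0.00361, adjusted p = 0.0139). By rho none of these passed (-0.59, p = 0.0461, adjusted p = 0.178; -0.70, p = 0.0196, adjusted p = 0.126; -0.77, p = 0.00792, adjusted p = 0.0713), and without the 2 farthest kidneys r was -0.38, -0.57 and -0.63. The other 2 relations that passed by r, Per3 in UNT (r = -0.69, p = 0.0119, adjusted p = 0.0400; rho = -0.56, p = 0.0615, adjusted p = 0.207) and Tef in PBS (r = -0.81, p = 0.00278, adjusted p = 0.0125; rho = -0.34, p = 0.317, adjusted p = 0.476), fell to -0.43 and -0.39 without the 2 farthest kidneys and so rest on these. A library set holds 3 or 4 kidneys of a group, too few for a correlation of its own. With the set means removed, 5 of the 27 relations passed. Leaving out the 2 farthest kidneys also raised some relations that had not passed, such as Nr1d2 in UNT (from -0.12 to -0.80) and Per2 in PBS (from 0.23 to 0.66), which were chosen after their values were seen.

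**Figure D4:**
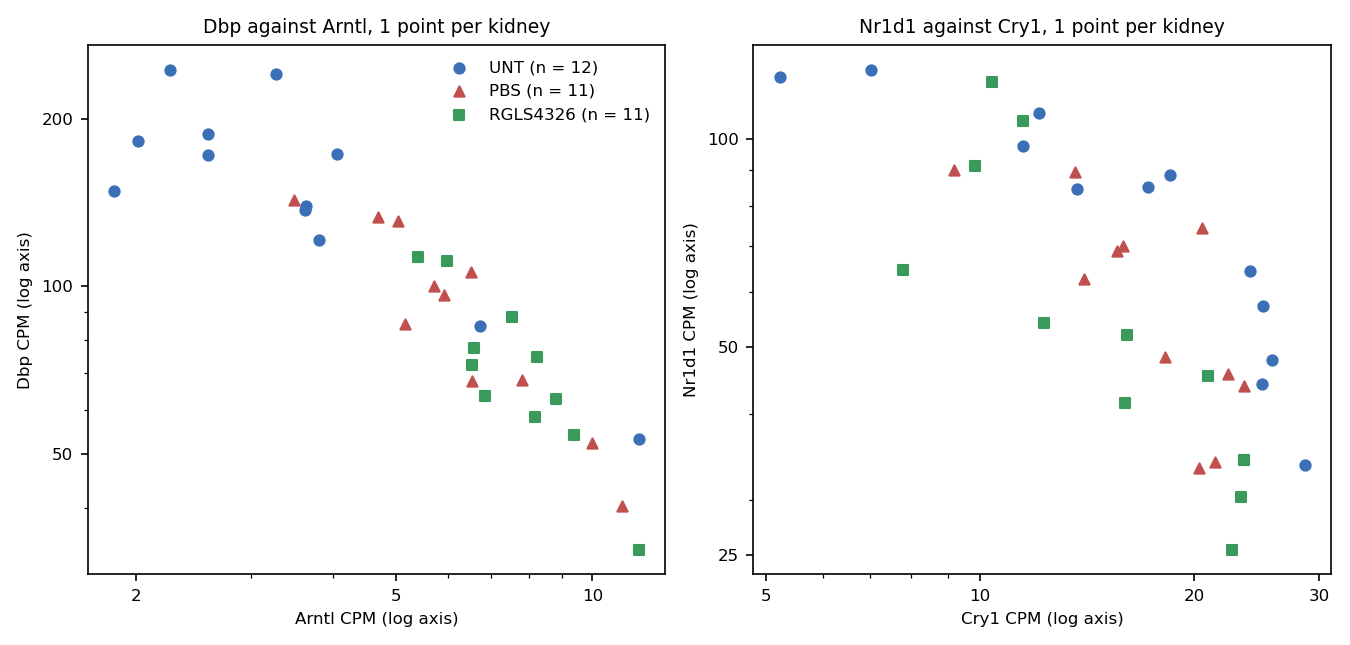
Dbp against Arntl (left) and Nr1d1 against Cry1 (right) in CPM on logarithmic axes, 1 point per kidney for UNT (n = 12), PBS (n = 11) and RGLS4326 (n = 11). Both pairs run downward in every group (r = -0.86, -0.93 and -0.90 on the left), and the UNT points reach the lowest Arntl and Cry1 values.

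The kidneys can also be read one by one. In the UNT group, kidneys 10 and 1 had the most Arntl (11.8 and 6.73 CPM) and the least Nr1d1 (33.7 and 44.2 CPM), and kidneys 7 and 8 the least Cry1 (7.01 and 5.22 CPM) and the most Nr1d1 (126 and 123 CPM). UNT kidney 4 combined the least Per1 and Per2 of the group (67.6 and 74.2 CPM) with 241 CPM of Dbp. In the PBS group, kidneys 3 and 2 had the most Arntl (11.1 and 10.0 CPM) and the least Dbp, Nr1d1 and Tef (169 and 179 CPM for Tef). In the RGLS4326 group, kidney 11 had the most Arntl and Per2 (111 CPM) and the least Dbp and Nr1d1, and kidneys 4 and 10 the most Nr1d1 (121 and 106 CPM) and Dbp (111 and 113 CPM).

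**Figure D5:**
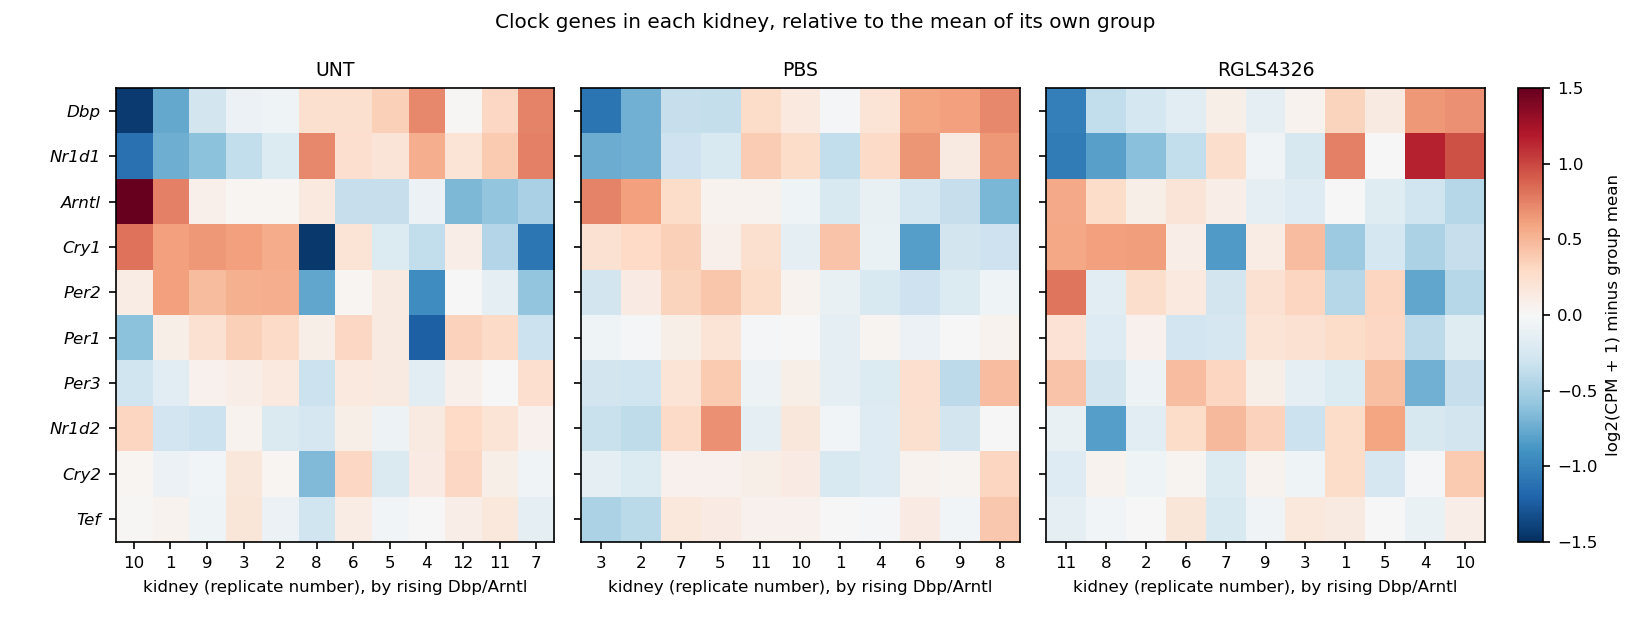
Heat map of the 10 clock genes (rows) in each kidney (columns), as log2(CPM + 1) minus the mean of the kidney's own group, with kidneys of UNT, PBS and RGLS4326 ordered by the ratio of Dbp to Arntl. The ordering itself sets the rise of Dbp and the fall of Arntl from left to right, and the values run from -1.45 (Cry1, UNT kidney 8) to 1.49 (Arntl, UNT kidney 10).

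Over all 34 kidneys, with group means removed, the pattern of each tested gene was set beside that of Dbp. Of 15643 genes, Nr1d1 was the most like Dbp (r = 0.90) and Arntl the least (r = -0.87). The genes outside the 10 with the highest r to Dbp were 1700018L02Rik, Naprt1, Poll, Athl1 and Cyp2s1, at 0.77 to 0.78, and those most like Arntl were Aggf1, Leo1, 4930453N24Rik, Rala and Hdac2, at 0.70 to 0.73. Thra, which shares exon bases with Nr1d1, had an r of 0.58 to Dbp, and Sphk2, which shares them with Dbp, 0.16. These are descriptions over kidneys that also share depth and tissue makeup.

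Other clock genes were taken from fixed lists. Of 16 feedback genes and modulators, 7 were called higher and 8 lower in PBS than in UNT, beside 43.1% and 39.0% of all tested genes. With calls this common, such counts by themselves say little about a list. Hlf, a relative of Dbp and Tef, fell by 2.16 on the log2 scale, from 161 to 261 CPM in UNT kidneys to 23.0 to 65.9 in PBS kidneys. Gm129, the older name of the clock repressor Ciart, fell by 2.23, and Bhlhe41, which encodes a repressor that competes for E-boxes, rose by 1.21. Against UNT, RGLS4326 kidneys differed by -1.57 for Hlf, -2.22 for Gm129 and 1.14 for Bhlhe41. In that comparison 8 of the 16 were called higher and 8 lower, beside 40.8% and 36.9% of all tested genes. After RGLS4326, Hlf was called higher than in PBS (0.59 ± 0.15, adjusted p = 0.00505) and the kinase gene Csnk1d lower (-0.17, adjusted p = 0.0107). Without PBS kidneys 2 and 11 both were still called (0.49, adjusted p = 0.0238, and -0.15, adjusted p = 0.0450), and with the fraction outside annotated genes as a covariate neither was (0.57, adjusted p = 0.0805, and -0.09, adjusted p = 0.244).

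Of 8 genes known to follow the clock, 2 were called higher and 5 lower in PBS than in UNT, beside 43.1% and 39.0% of all tested genes. Edn1, which encodes endothelin, rose by 3.47 and Scnn1a, a subunit of the epithelial sodium channel, by 1.38, while Slc9a3 (the proximal sodium-proton exchanger) fell by 1.94, Usp2 by 1.63 and Nampt by 1.63. RGLS4326 kidneys had more Slc9a3 (0.69, adjusted p = 0.0147) and Nampt (0.32, adjusted p = 0.0243) and less Scnn1a (-0.62, adjusted p = 0.00466) than PBS kidneys. Without PBS kidneys 2 and 11 only Scnn1a was called of these 3 (-0.50, adjusted p = 0.0267), with 0.57 for Slc9a3 (adjusted p = 0.0592) and 0.28 for Nampt (adjusted p = 0.0788), and with the same covariate none was (-0.38, 0.58 and 0.28, adjusted p = 0.144, 0.163 and 0.199). Against UNT they still had more Edn1 (3.45) and less Usp2 (-1.54) and Nampt (-1.31). Of 5 genes that respond to glucocorticoid, a hormone with a daily rhythm of its own, 3 were called lower in PBS than in UNT and none higher. Of all tested genes 39.0% were called lower. The 3 were Sgk1 (-1.73), Zbtb16 (-1.11, adjusted p = 0.0331) and Klf9 (-0.95). Zbtb16 varied from 3.60 to 105 CPM among UNT kidneys, and its difference was -1.48, 0.26 and -1.47 within the sets. Klf9 was called higher after RGLS4326 than in PBS (0.45, adjusted p = 0.0239, with 0.76, 0.04 and 0.54 within the sets), but neither without PBS kidneys 2 and 11 (0.40, adjusted p = 0.0729) nor with the covariate (0.40, adjusted p = 0.185). In RGLS4326 kidneys 2 of the 5 were called lower than in UNT, Sgk1 (-1.36) and Klf9 (-0.50), beside 36.9% of all tested genes. Slc9a3 belongs to proximal tubule cells, whose summed markers are given above, and Scnn1a to collecting duct cells. Summed collecting duct markers overlapped between groups, at 449 to 770.1 CPM in UNT, 678 to 1999 in PBS and 374 to 1725 in RGLS4326 kidneys.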

How the data were processed

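The authors deposited, per kidney, a table of read counts per gene (raw counts, not normalized), from stranded polyadenylated RNA libraries; the submitters' processing notes name FastQC 0.11.2, Trim Galore, STAR, SAMtools 1.1, HTSeq 0.6.1, Picard 1.119 and GRCm38. The annotation and strand setting are not given in the sources used here. Groups came from sample titles. The 10 genes and all gene lists were chosen with earlier results of these data known. Here, counts were scaled by TMM and tested with edgeR 4.0.16 in R 4.3.3 (quasi-likelihood, all 34 kidneys, 3 groups, filterByExpr, 15644 genes, Benjamini-Hochberg over all of them, called at adjusted p under 0.05); SE is the log2 fold change divided by the square root of F. Spread was tested with limma 3.58.1 on log2(CPM + 1). Correlations used 100000 two-sided permutations; the 45 pairs among members were added after the values were seen. All 10 members are named, with Clock and Npas2 and, per comparison, the 3 called genes of each clock, output or glucocorticoid list with the largest change, and the 5 genes most like Dbp and like Arntl. A gene that this rule would name is not reported here. On simulated counts for PBS against UNT, 98 of 100 genes with a log2 change of 0.5 and 10 of 13804 unchanged genes were called. Whether these shares hold for genes that vary between kidneys as much as Cry1, Dbp, Arntl or Nr1d1 was not tested. DESeq2 1.42.0 and other scalings, filters, sample sets and covariates were tried as alternatives. Counting SDs cover counting error only. Deviations of same-numbered kidneys had a median r of -0.07, 0.05 and -0.04 in the 3 comparisons, in the order given above. The highest r was 0.39, 0.45 and 0.25, with 2, 5 and 3 of 11 pairs over 0.1. Numbers were not used as pairs. The 34 tables held no identical pair.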

Additional observations from a re-analysis of the deposited data

How the results depend on the processing

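Besides the fit reported, 16 alternatives were tried per comparison, and each of the 34 kidneys was also left out in turn, apart from the 16. Leaving out the 2 PBS kidneys with adrenal transcripts, 1 of the 16, and leaving out single kidneys were chosen after seeing the data. Of 160 values of members (10 genes, 16 alternatives) in each comparison, 142 kept their direction and their side of the threshold in PBS against UNT, 128 in RGLS4326 against PBS and 150 in RGLS4326 against UNT. The causes of the changes were not tested.

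For RGLS4326 against PBS, the number of all genes called was 54 with library set 1 alone, 0 with set 3 alone (2826 at an unadjusted p under 0.05), 2335 without set 2, 2047 without set 3, 89 with the no-gene share as covariate and 2836 without the adrenal-bearing kidneys. The number of members called was 0 with set 1 alone, with set 3 alone, with the no-gene share and without the adrenal-bearing kidneys. It was 1 with only the 2 groups compared and without set 1, set 2 or set 3, and 1 to 2 when single kidneys were left out. The number of genes with a called difference in spread was, for PBS against UNT, 106 with only the 2 groups, 87 with an offset of 0.25 and 18 within library sets. For RGLS4326 against PBS it was 61 with library size only, 0 with only the 2 groups and 0 within sets, and for RGLS4326 against UNT 221 and 12 in the last 2 of these. No member was called in any of them. Relations with Arntl that passed were 5 with set means removed, where Per1 in PBS turned to 0.34, and Nr1d2 in RGLS4326 kidneys turned to 0.07 with library size only.

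Signs turned as follows in PBS against UNT. Cry1 was 0.30 with library size only, 0.01 with upper-quartile factors, 0.53 with set 2 alone, 0.06 with set as covariate, 0.02 without set 1, 0.16 without set 3 and -0.10 to 0.07 without single kidneys. Clock was 0.20 with library size only, 0.23 with set 2 alone, 0.29 with the no-gene share and 0.09 without set 3, and Nr1d1 was 0.16 with set 3 alone. In RGLS4326 against UNT, Cry1 was 0.15 with library size only and 0.09 with set 2 alone, and Nr1d1 was 0.05 with set 1 alone.

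In RGLS4326 against PBS, Nr1d1 was -0.01 with upper-quartile factors, -0.23 and -0.47 with sets 2 and 3 alone, -0.36 without set 1, -0.02 without the adrenal-bearing kidneys and -0.14 to 0.09 without single kidneys. With set 1 alone, Arntl was -0.30, Dbp 0.48 and Npas2 -0.11. With set 2 alone, Per1 was -0.10, Cry2 -0.07 and Tef -0.01. With set 3 alone, Cry1 was 0.20, Cry2 -0.0028 and Tef -0.08. Without set 1, Per1 was -0.04, Cry2 -0.02 and Tef -0.05, and without set 3, Dbp was 0.01 and Npas2 -0.02. With the no-gene share, Per1 was -0.08 and Per2 -0.16. Without single kidneys, Per1 ran from -0.02 to 0.05 and Per2 from -0.02 to 0.14.

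Kidneys with the same replicate number share only that number, and their deviations correlated over 0.1 in 2, 5 and 3 of 11 pairs, with 1, 2 and 2 kidneys correlating best with their own number. With the replicate block, 12781, 5098 and 12162 genes were called in the 3 comparisons and 8, 2 and 8 members. Cry1 turned to 0.07 in PBS against UNT and Per1 to -0.02 in RGLS4326 against PBS. Depth limits Arntl most, with as few as 33 reads in a kidney.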
